A study of Mus musculus with 12 samples.

Results

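The 9 genes described here mark steps in the making of new neurons and in cell division: *Dcx*, *Sox11*, *Sox4* and *Igfbpl1* for immature neurons, *Eomes* and *Neurod1* for neuronal progenitors and their daughters, and *Mki67*, *Top2a* and *Cdk1* for dividing cells. They were picked by symbol as known markers, with earlier results of these data known, and are 9 of the 26409 genes listed for these libraries. All 9 reached the mean of 0.1 TPM (a level per unit of transcript length that is brought to the same sum in each library) that was asked of the 18197 genes tested. Hippocampi were dissected from 12 mice aged 6 to 12 months, with 3 libraries each of female WT, male WT, female *Dek* cKO and male *Dek* cKO mice, and poly-A RNA was sequenced in stranded libraries. The *Dek* cKO mice descend from a cross of CMV-Cre mice with *Dek* fl/fl mice, in which loxP sites flank exons 3 and 4. CMV-Cre acts in the germline, and the Cre transgene was then bred out, so the deletion is constitutive and present in every tissue rather than in neurons or progenitors alone. The line was kept by crossing heterozygous mice.

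In the dentate gyrus of the hippocampus, stem cells with the shape of radial glia give rise to intermediate progenitors, which express *Eomes*, and these to neuroblasts and immature granule neurons, which express *Dcx* for some weeks before they mature. The process declines steeply from youth to middle age, and in a whole hippocampus the cells concerned are a small minority. Dividing cells of the adult hippocampus also include oligodendrocyte precursors, microglia and endothelial cells, so *Mki67*, *Top2a* and *Cdk1* are not specific to the neuronal lineage. DEK is a chromatin protein that is abundant in proliferating cells.

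The promoters of the 3 proliferation genes hold the letters of elements through which cell cycle genes of G2 and M phase are known to be controlled. These elements are the CHR (cell cycle genes homology region, TTTGAA), bound by the MuvB complexes, and the CCAAT box, bound by NF-Y. The promoters are shown because the 3 genes are described together below. Each line gives the 250 bases before the transcription start, 5′ to 3′ on the strand of the gene, from RefSeq on GRCm38.p6, with TTTGAA and CCAAT of either strand (TTCAAA and ATTGG on the other) in capitals. The windows lie on the minus strand at chr7:135716380-135716629 for *Mki67*, chr11:99024190-99024439 for *Top2a* and chr10:69352913-69353162 for *Cdk1*.
Mki67: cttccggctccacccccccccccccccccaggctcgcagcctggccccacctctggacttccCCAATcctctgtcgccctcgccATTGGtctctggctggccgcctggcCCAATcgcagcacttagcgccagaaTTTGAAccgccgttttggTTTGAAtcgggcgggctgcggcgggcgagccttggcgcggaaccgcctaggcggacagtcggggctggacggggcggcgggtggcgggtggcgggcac
Top2a: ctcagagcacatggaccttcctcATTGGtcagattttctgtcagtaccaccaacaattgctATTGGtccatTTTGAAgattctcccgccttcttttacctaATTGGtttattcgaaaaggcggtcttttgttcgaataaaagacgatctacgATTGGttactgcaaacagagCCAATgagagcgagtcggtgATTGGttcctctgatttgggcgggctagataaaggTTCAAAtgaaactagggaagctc
Cdk1: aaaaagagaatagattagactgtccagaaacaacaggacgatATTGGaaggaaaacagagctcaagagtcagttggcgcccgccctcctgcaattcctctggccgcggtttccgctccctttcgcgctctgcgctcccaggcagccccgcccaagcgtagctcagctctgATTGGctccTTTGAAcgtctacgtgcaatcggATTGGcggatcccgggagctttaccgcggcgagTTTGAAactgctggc
*Mki67* held 2 TTTGAA and 3 CCAAT, *Top2a* 2 and 6, and *Cdk1* 2 and 3. Of 32851 promoter windows of the same length, 16.0% held TTTGAA, 33.8% held CCAAT and 5.55% held both. Among the other 6 genes, RefSeq windows were found for 5, and both motifs were present only in that of *Sox11*, with 1 of each. *Sox4* held 4 CCAAT and no TTTGAA, *Eomes* 2 CCAAT, the first of the 2 *Dcx* promoters 1 CCAAT, and the second *Dcx* promoter and *Neurod1* neither. A match is a run of letters and not a tested site.

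*Dek* transcript separated the genotypes in every library, at 48.3 ± 2.58 TPM in WT and 7.23 ± 1.32 TPM in *Dek* cKO mice (SD, n = 6 each). The library labelled female cKO replicate 3 had the Y-linked *Eif2s3y* at 72.7 TPM, within the range of male WT libraries, and the library labelled male cKO replicate 1 had it at 0.111 TPM. The comparison of genotypes over both sexes is not affected by these labels, and values within a sex are given with and without both libraries for *Dcx* and *Mki67*. A different prefix opens the names of the 3 female WT libraries than of the other 9, so that this prefix and the female WT group cannot be told apart. Female WT replicate 1 and male cKO replicate 3 stood apart in other genes described below, and for the 9 genes the differences that moved most are given without them.

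No member of the group passed the test for a difference between *Dek* cKO and WT mice. Of the 9 genes, 0 passed (limma on log2(TPM + 0.1), Benjamini-Hochberg adjusted p from 0.864 to 0.999), and 0 had an unadjusted p under 0.05. Among all 18197 genes tested, 27 passed (0.148%) and 1208 had an unadjusted p under 0.05 (6.64%). In none of the 9 genes did the 6 *Dek* cKO libraries lie apart from the 6 WT libraries, which 0.676% of all genes did. On the log2 scale the difference was above 0 for 4 genes and below 0 for 5, with a median of -0.01, against 0.02 over all genes. How much of a difference the data leave possible varied widely between the genes, from an interval 0.298 wide on the log2 scale for *Sox4* to 2.30 for *Eomes*. In RNA from whole tissue, fewer cells of a type and less RNA per cell cannot be told apart.

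**Figure D1:**
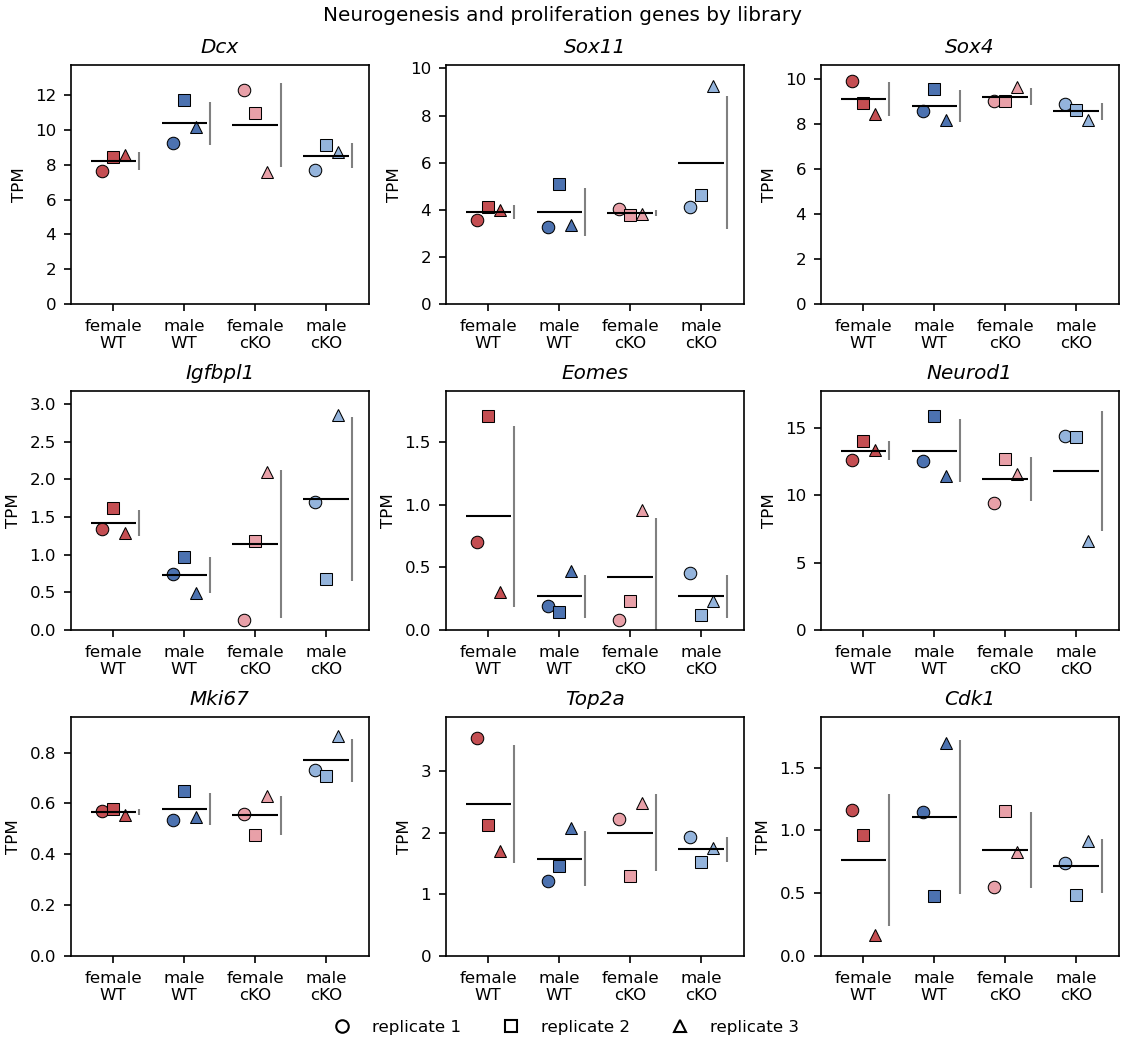
Level of each of the 9 genes (TPM, linear axis from 0) in the 12 libraries, by group; symbols mark replicates, black lines the group mean and gray bars the mean ± SD (n = 3). The groups overlapped in most panels, with *Sox11* at 9.24 TPM in male cKO replicate 3 and *Top2a* at 3.54 TPM in female WT replicate 1 as single high libraries.

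The 9 genes are given here in order of their mean level. *Neurod1* was the most abundant at 12.4 ± 2.47 TPM over the 12 libraries, followed by *Dcx* at 9.33 ± 1.59, *Sox4* at 8.91 ± 0.563 and *Sox11* at 4.42 ± 1.60 TPM (SD, n = 12). *Dcx* and *Sox4* overlapped, with *Dcx* the higher in 8 of 12 libraries, while *Sox11* lay below *Sox4* in 11 of 12. *Top2a* at 1.94 ± 0.635 and *Igfbpl1* at 1.26 ± 0.746 TPM came next, with *Igfbpl1* above *Cdk1* in 9 of 12 libraries. *Cdk1* at 0.857 ± 0.411, *Mki67* at 0.617 ± 0.108 and *Eomes* at 0.467 ± 0.471 TPM were all below 1 TPM on average, and the order of these 3 held in only 8 and 9 of 12 libraries for each neighbouring pair. Ranked among all genes tested, the means ran from the 14.4th percentile for *Eomes* to the 54.7th for *Neurod1*. The spread within a genotype did not follow the level alone: *Mki67* varied by 7.06% of its mean among WT libraries and *Eomes*, close to it in level, by 99.8%.

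*Dcx*, which encodes the microtubule-binding protein doublecortin of migrating and immature neurons, lies on chromosome X from 143855842 to 143933311 (GRCm38, minus strand). Its level was 7.63, 8.43 and 8.54 TPM in female WT, 9.23, 11.7 and 10.1 TPM in male WT, 12.3, 10.9 and 7.59 TPM in female cKO and 7.70, 9.10 and 8.72 TPM in male cKO libraries. The means of the genotypes were nearly equal, 9.28 ± 1.46 TPM in WT and 9.39 ± 1.86 TPM in *Dek* cKO mice (SD, n = 6). The WT mean lay between female WT libraries, at 8.20 ± 0.499 TPM, and male WT libraries, at 10.4 ± 1.25 TPM (SD, n = 3), which did not overlap. The log2 fold change was 0.01 (SE 0.13, 95% interval -0.28 to 0.30), whose ends are changes of -17.6% and 22.8% in TPM + 0.1 (adjusted p = 0.999). The 3 highest levels were those of female cKO replicate 1, male WT replicate 2 and female cKO replicate 2. Scores for a list of 7 cortical marker genes were 0.84 and 0.57 on the log2 scale in the first and the last of these and -0.37 to 0.16 in the other 10 libraries, with 0.0044 in male WT replicate 2. The part of adjoining cortex in the *Dcx* values was not tested.

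*Sox4* and *Sox11* encode related transcription factors of the SoxC group that act in newly formed neurons. *Sox4*, on chromosome 13 from 28948919 to 28953713, was the steadiest of the 9 genes, between 8.19 and 9.91 TPM in WT (median 8.75) and between 8.16 and 9.63 TPM in *Dek* cKO libraries (median 8.94). Its log2 fold change of -0.01 (SE 0.07, 95% interval -0.16 to 0.14) has interval ends at -10.2% and 10.4% in TPM + 0.1. Of the 31-base words in *Sox4* transcripts, counted on either strand, 54.3% also occur in *Gm26735*. This long noncoding RNA overlaps *Sox4* on the opposite strand and is not among the listed genes. The libraries were stranded, but how the quantification treated such reads cannot be read from the table. *Sox11*, on chromosome 12 from 27334264 to 27342574, shared only 0.217% of its words with *Sox4*.

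*Sox11* had 3.57, 4.14 and 3.97 TPM in female WT, 3.29, 5.08 and 3.34 TPM in male WT, 4.02, 3.79 and 3.83 TPM in female cKO, and 4.12, 4.62 and 9.24 TPM in male cKO libraries. A single library, male cKO replicate 3, was far above the rest, and the other 11 lay between 3.29 and 5.08 TPM. The log2 fold change of *Sox11* was 0.27 (SE 0.20, 95% interval -0.17 to 0.71, adjusted p = 0.888) over all libraries and 0.07 without male cKO replicate 3. The same library held the lowest *Neurod1* and the highest *Mki67* and *Igfbpl1* levels of the 12.

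*Igfbpl1*, a secreted protein of the insulin-like growth factor binding family and a marker of neuroblasts, lies on chromosome 4 from 45809468 to 45826923 and shares no 31-base word with another gene. It had 1.34, 1.62 and 1.29 TPM in female WT, 0.740, 0.971 and 0.496 TPM in male WT, 0.136, 1.18 and 2.10 TPM in female cKO, and 1.69, 0.678 and 2.85 TPM in male cKO libraries. Within a labelled sex the SD was 0.176 TPM in female WT and 0.238 TPM in male WT libraries (n = 3). It was 0.981 TPM in female cKO and 1.09 TPM in male cKO libraries, both libraries of conflicting sex included. Over both sexes the SD was 38.8% of the mean in WT and 68.3% in *Dek* cKO mice. The log2 fold change was 0.09 (SE 0.52, 95% interval -1.04 to 1.22), and it moved to 0.56 without female cKO replicate 1 and to -0.17 without male cKO replicate 3. Neither direction can be read from this gene.

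*Eomes* encodes the T-box factor of intermediate progenitors and lies on chromosome 9 from 118478212 to 118486132. Its mean level was the lowest of the 9: 0.708, 1.71 and 0.305 TPM in female WT, 0.193, 0.147 and 0.468 TPM in male WT, 0.0783, 0.230 and 0.958 TPM in female cKO, and 0.456, 0.121 and 0.231 TPM in male cKO libraries. The mean was 0.589 ± 0.587 TPM in WT and 0.346 ± 0.328 TPM in *Dek* cKO mice (SD, n = 6), and female WT replicate 2 was the highest library. The log2 fold change of -0.54 had an SE of 0.53 and a 95% interval from -1.69 to 0.60 (adjusted p = 0.917), the ends of which are changes of -69.1% and 51.9%. The difference was -0.19 without female WT replicate 2 and -0.85 without female cKO replicate 3. Its sign turned, to 0.10, when the 6 *Dek* cKO libraries were compared with the 3 male WT libraries alone.

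*Neurod1*, a basic helix-loop-helix factor of late progenitors and young neurons that mature granule cells retain, lies on chromosome 2 from 79452521 to 79456751. It had 12.6, 14.0 and 13.3 TPM in female WT, 12.6, 15.9 and 11.5 TPM in male WT, 9.42, 12.7 and 11.6 TPM in female cKO, and 14.4, 14.3 and 6.65 TPM in male cKO libraries. The 2 lowest libraries were both *Dek* cKO, female replicate 1 and male replicate 3, and the highest was WT. Of the 9 genes it had the smallest unadjusted p, 0.159, with a log2 fold change of -0.25 (SE 0.17, 95% interval -0.61 to 0.11, adjusted p = 0.864) and -0.10 without male cKO replicate 3. *Neurod1* lies inside *Cerkl* on the same strand, with 6.37% of its 31-base words in common, and *Cerkl* was listed at 6.90 to 12.1 TPM.

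*Mki67* encodes Ki-67, which coats mitotic chromosomes and is present in cycling cells only, and lies on chromosome 7 from 135689784 to 135716361. It had 0.570, 0.576 and 0.555 TPM in female WT, 0.535, 0.649 and 0.548 TPM in male WT, 0.557, 0.475 and 0.628 TPM in female cKO, and 0.733, 0.708 and 0.867 TPM in male cKO libraries. The 3 libraries labelled male cKO were the highest of the 12, but replicate 1 among them had the Y-linked *Eif2s3y* at only 0.111 TPM. Female cKO replicate 3, with *Eif2s3y* at 72.7 TPM, had *Mki67* at 0.628 TPM, within the range of male WT libraries. Over both sexes the mean was 0.572 ± 0.0404 TPM in WT and 0.661 ± 0.139 TPM in *Dek* cKO mice (SD, n = 6), and the log2 fold change was 0.16 (SE 0.18, 95% interval -0.23 to 0.55, adjusted p = 0.936), and 0.089 without male cKO replicate 3.

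*Top2a*, the topoisomerase that untangles chromosomes before mitosis (chromosome 11, 98992943 to 99024189), had 3.54, 2.13 and 1.71 TPM in female WT, 1.21, 1.45 and 2.07 TPM in male WT, 2.21, 1.29 and 2.49 TPM in female cKO, and 1.92, 1.52 and 1.75 TPM in male cKO libraries. Female WT replicate 1 was the highest. With it the log2 fold change of *Top2a* was -0.06 (SE 0.24, 95% interval -0.57 to 0.45), and without it 0.11. *Cdk1*, the kinase that drives entry into mitosis (chromosome 10, 69335146 to 69352938), had 1.16, 0.966 and 0.164 TPM in female WT, 1.14, 0.475 and 1.70 TPM in male WT, 0.552, 1.15 and 0.828 TPM in female cKO, and 0.738, 0.486 and 0.918 TPM in male cKO libraries. Both the lowest and the highest *Cdk1* values were those of WT libraries, and the log2 fold change was -0.04 (SE 0.41, 95% interval -0.93 to 0.84), or -0.39 without female WT replicate 3 and 0.16 without male WT replicate 3. The 3 genes did not rank the libraries alike: the highest library was male cKO replicate 3 for *Mki67*, female WT replicate 1 for *Top2a* and male WT replicate 3 for *Cdk1*.

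**Figure D2:**
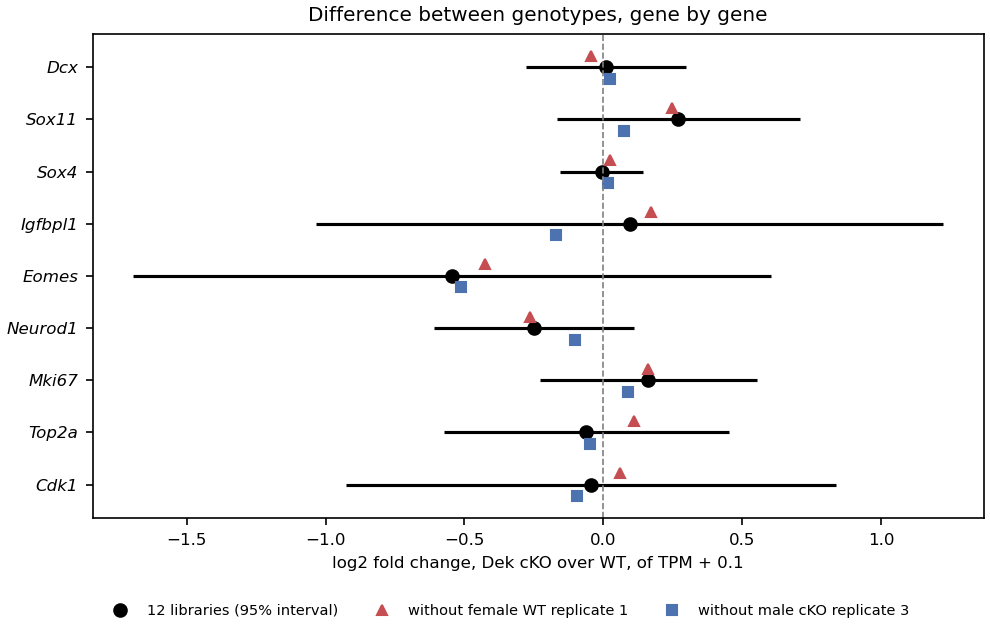
Log2 fold change of *Dek* cKO over WT (horizontal axis, of TPM + 0.1) for the 9 genes; circles and bars give the estimate and 95% interval over 12 libraries, triangles the estimate without female WT replicate 1 and squares that without male cKO replicate 3. Every interval crossed 0, and leaving out male cKO replicate 3 moved *Sox11* from 0.27 to 0.07 and *Neurod1* from -0.25 to -0.10.

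The study tested its mice by sex, and the genes were therefore also compared within each sex, in 1 fit of 4 groups. Of the 9 genes, 0 passed in female mice and 0 in male mice (0.0165% of all genes in each), and 0 in the interaction of genotype and sex (0% of all genes). At an unadjusted p under 0.05 there were 0 of 9 in female mice (5.79% of all genes), 0 of 9 in male mice (5.45%) and 1 of 9 in the interaction (4.23%). All 3 male cKO libraries lay below all 3 male WT libraries for *Dcx* and above them for *Mki67*. That is 2 of 9 genes without overlap, where 9.75% of all genes had none, and in female mice it was 0 of 9 genes, where 12% of all genes had none. With 3 against 3 libraries, an exact permutation test of a single gene cannot go below 0.1.

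*Dcx* was that 1 gene. It was higher in female cKO than in female WT libraries, by 0.29 (SE 0.16, 95% interval -0.07 to 0.65), and lower in male cKO than in male WT libraries, by -0.28 (SE 0.16, 95% interval -0.64 to 0.08), both on the log2 scale and neither past the test. Leaving out single libraries gave 0.15 (without female cKO replicate 1) to 0.49 (without female cKO replicate 3) in female mice and -0.36 to -0.19 in male mice. The interaction was -0.57 (SE 0.23, 95% interval -1.08 to -0.06), with an adjusted p of 0.966 over all genes (limma). With sexes set by Y-linked genes, the values of *Dcx* were 0.30 in female mice, -0.28 in male mice and -0.59 for the interaction (adjusted p = 0.735). With both libraries of conflicting sex left out they were 0.49, -0.21 and -0.70 (adjusted p = 0.290). The female cKO libraries that remained were replicates 1 and 2, whose cortex scores were 0.84 and 0.57. Among WT mice alone, all 3 male libraries were above all 3 female libraries for *Dcx*, and for *Igfbpl1* all 3 were below (2 of 9 genes, 12% of all genes), a contrast in which sex and the prefix of the library names cannot be told apart. Genotype and prefix likewise cannot be told apart in any comparison of female cKO with female WT libraries. The interaction contains that comparison and carries the same limit.

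The *Mki67* difference in male mice was 0.36 on the log2 scale (SE 0.25, 95% interval -0.19 to 0.91, adjusted p = 0.901). It became 0.39 with both libraries of conflicting sex left out, 0.30 with sexes set by Y-linked genes, where 1 cKO library fell within the male WT range and *Dcx* was the only 1 of the 9 genes left without overlap (11.1% of all genes), and 0.28 without male cKO replicate 3. Other genes are given by the labelled sex only. For *Sox11*, the difference in male mice of 0.54 (SE 0.27, 95% interval -0.05 to 1.13) included the 9.24 TPM of male cKO replicate 3, and in female mice the value was 0.00 (SE 0.27). *Igfbpl1* stood at -0.79 (SE 0.71) in female and 0.98 (SE 0.71) in male mice, with an interaction of 1.77 (SE 1.01) that did not pass. The remaining genes differed by -1.08 to 0.36 in female and by -0.45 to 0.15 in male mice, with *Eomes* in female mice the farthest from 0 (SE 0.72).

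Whether the genes varied together between mice was examined over the 12 libraries after each genotype's mean was subtracted. The 36 pairs of genes had Pearson correlations from -0.71 to 0.78 with a median of -0.01, and 5 pairs had an unadjusted permutation p under 0.05. After adjustment over the 36 pairs, 0 passed by Pearson's r and 2 by Spearman's rho. *Sox11* and *Mki67* varied in the same direction, with r = 0.78 (permutation p = 0.0024, adjusted 0.0864) and rho = 0.85 (permutation p = 0.00106, adjusted 0.0382). Without male WT replicate 2 and male cKO replicate 3, the libraries farthest from the median of *Sox11*, r was 0.51. *Dcx* and *Eomes* ran opposite to each other, with r = -0.70 (permutation p = 0.0118, adjusted 0.142) and rho = -0.80 (permutation p = 0.00266, adjusted 0.0479), and r was -0.54 without male WT replicate 2 and female cKO replicate 1. *Dcx* and *Igfbpl1* gave r = -0.71 (permutation p = 0.00777, adjusted 0.140) and rho = -0.76 (permutation p = 0.00601, adjusted 0.0721), and -0.59 without the same libraries. In the 9 libraries that share a name prefix the 3 values of r were 0.78, -0.72 and -0.68, and the 3 libraries of the other prefix were too few to give one. Among the 3 proliferation genes r was 0.07 for *Mki67* and *Top2a*, -0.16 for *Mki67* and *Cdk1* and 0.18 for *Top2a* and *Cdk1*, and no pair passed.

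**Figure D3:**
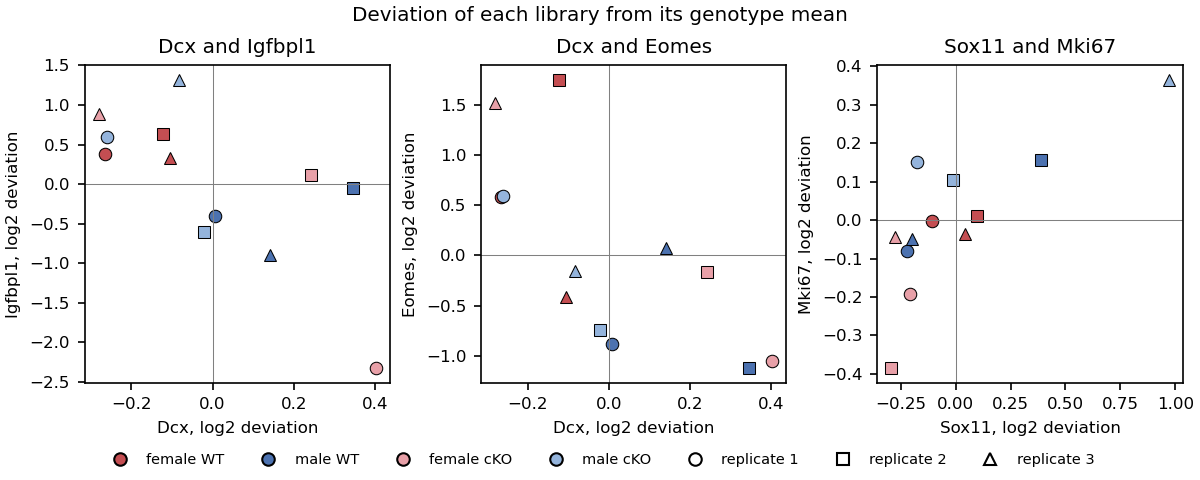
Deviation of each library from its genotype mean on the log2(TPM + 0.1) scale for 3 pairs of genes; colours mark the groups and symbols the replicates. *Sox11* and *Mki67* (r = 0.78) had male cKO replicate 3 alone at the upper right, and in the *Dcx* panels (r = -0.71 with *Igfbpl1*, -0.70 with *Eomes*) female cKO replicate 1 lay farthest to the lower right.

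The genes whose levels followed *Dcx* most closely over the 12 libraries, out of 14154 genes averaging 1 TPM or more, were *Cmpk2* (r = 0.91), *Efr3a* (0.90) and *Bmp3* (0.88). For *Mki67* they were *Actl6a* (r = 0.92), *Pik3cb* (0.91) and *Slc25a30* (0.91). These are the extremes of many correlations and are given as a description. *Bmp3*, which encodes a bone morphogenetic protein, ran from 1.68 to 4.64 TPM and *Actl6a*, a subunit of chromatin remodelling complexes, from 12.1 to 17.4 TPM.

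No gene of the wider lists for these pathways passed the test either. The 7 lists of neurogenesis and cell cycle genes held 147 genes, of which 144 were tested, 0 passed and 6 had an unadjusted p under 0.05 (4.17%, against 6.64% of all genes). Median log2 differences were -0.05 for 15 stem cell genes, 0.06 for 11 intermediate progenitor genes, 0.01 for 21 immature neuron genes, 0.05 for 24 S phase genes, -0.05 for 40 G2 and M phase genes, 0.01 for 11 cell cycle inhibitors and 0.08 for 22 genes of neurogenic signals, against 0.02 over all genes. In the stem cell list the largest difference was that of *Gfap*, the intermediate filament of astrocytes and radial stem cells, at 0.50 (SE 0.35), and 0.13 without male cKO replicate 3. *Nes*, the intermediate filament nestin of neural stem cells, stood at -0.04.

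The 6 genes with an unadjusted p under 0.05 did not point one way. Among intermediate progenitor genes, *Neurod4*, a proneural factor, was at 0.333 ± 0.188 TPM in WT and 0.704 ± 0.223 TPM in *Dek* cKO mice (log2 fold change 0.99, adjusted p = 0.596). The somatostatin receptor gene *Sstr2* was at 0.53 (adjusted p = 0.729) and *Mfng*, a glycosyltransferase that modifies Notch, at -0.37 (adjusted p = 0.568). *Racgap1*, needed for cytokinesis, stood at 0.38 (adjusted p = 0.728) and *Smc2*, a condensin subunit, at -0.23 (adjusted p = 0.674). *Wnt7a*, a ligand that maintains neural stem cells, had 8.24 ± 0.858 TPM in WT and 6.63 ± 1.59 TPM in *Dek* cKO mice (log2 fold change -0.34, adjusted p = 0.712). Without male cKO replicate 3 the values were 0.30 for *Sstr2*, 0.25 for *Racgap1* and -0.22 for *Wnt7a*. Among genes averaging 1 TPM or more, those farthest from 0 in the remaining neurogenesis and cell cycle lists were *Cd24a* (immature neurons, -0.37), *Dtl* (S phase, 0.93), *Cks2* (G2 and M phase, -0.40), *Cdkn1a* (the inhibitor p21, 0.26) and *Fgf2* (a growth factor of stem cells, 0.79), all with adjusted p over 0.8. *Cks2* was at -0.064 and *Cd24a* at -0.24 without female WT replicate 1, and *Cdkn1a* at -0.0051 without male cKO replicate 3.

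Markers of other cells that the dissection could hold were set beside these values. Of 14 such lists with 128 genes tested, 0 genes passed. Medians were -0.01 for mature granule cells, -0.10 for pyramidal cells, -0.06 for the olfactory and subventricular lineage, -0.10 for oligodendrocyte precursors, 0.09 for Cajal-Retzius cells, 0.02 for endothelium, 0.07 for microglia, 0.17 for choroid plexus, 0.04 for meninges, -0.28 for ependyma, 0.06 for striatum, 0.01 for cortex, 0.19 for thalamus and habenula and -0.07 for blood. In 9 of 10 pyramidal genes and 9 of 10 oligodendrocyte precursor genes the value was below 0, among them *Wfs1* at -0.25 and *Vcan* at -0.37 (adjusted p = 0.407). It was below 0 in 7 of 7 ependymal genes and above 0 in 8 of 9 choroid plexus and 7 of 8 thalamic and habenular genes. Of all genes, 55.8% were above 0. Genes of a list are not independent of each other, so these counts are a description only. Choroid plexus scores ran from -1.64 to 1.05 in WT and from -2.95 to 1.73 in *Dek* cKO libraries. The lowest ependymal scores were -1.68 in female cKO replicate 1 and -1.61 in male WT replicate 2. Pyramidal scores were -0.26, -0.23 and -0.23 in female cKO replicates 1 and 2 and male cKO replicate 2, and 0.05 to 0.11 in the other cKO libraries. Other genes at the far end of their lists, by the same limit of 1 TPM, were *C1ql2* of granule cells at 0.34, *Tshz1* of the olfactory lineage at -0.19, *Trp73* of Cajal-Retzius cells at 0.21, *Emcn* of endothelium at 0.14, *P2ry12* of microglia at -0.40 (-0.18 without male cKO replicate 3), *Gpr151* of habenula at 0.83 (adjusted p = 0.247), *Gpr6* of striatum at -0.65 (-0.34 without the same library), *Lamp5* of cortex at 0.12 and *Alas2* of red cells at -0.41. Granule cell markers were present in every library, at a summed level of 219.7 to 346 TPM.

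Markers of tissue at the edge of the hippocampus differed widely between libraries. The summed level of 9 choroid plexus genes ran from 141 to 5246 TPM and was at its lowest in female cKO replicate 1, the library in which *Igfbpl1* was also lowest, at 0.136 TPM, and *Dcx* highest. The next lowest sums were 154, 187 and 217 TPM, in male cKO replicate 2 and female WT replicates 3 and 2. In these libraries *Igfbpl1* was at 0.678, 1.29 and 1.62 TPM and *Dcx* at 9.10, 8.54 and 8.43 TPM. Values for the ends of these lists were *Otx2* at -0.55 (SE 1.01), *Col3a1* (meninges) at 0.56 (SE 0.40) and *Rarres2* (ependyma) at -2.10 (SE 1.17). *Rarres2* was at 0 TPM in female WT replicate 2, female cKO replicate 2 and male cKO replicates 2 and 3, where the added 0.1 TPM sets the log2 value. Its means were 2.41 ± 1.68 TPM in WT and 1.75 ± 3.87 TPM in *Dek* cKO mice (SD, n = 6). The part of neighbouring tissue in the values of the 9 genes was not tested.

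**Figure D4:**
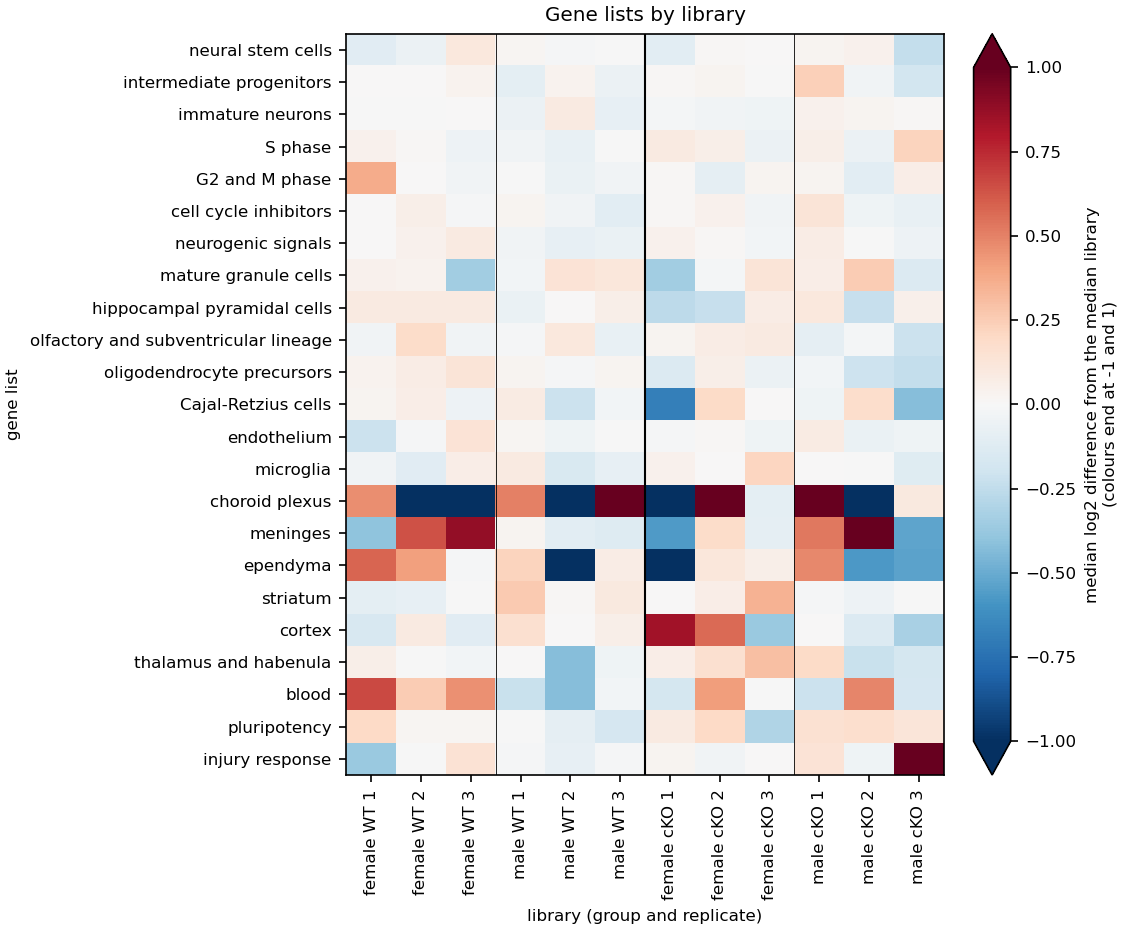
Score of each gene list (rows) in each of the 12 libraries (columns): the median over genes of the log2 difference from the median library, with colours ending at -1 and 1. The lists of stem cells, progenitors, immature neurons and S phase stayed between -0.24 and 0.24, while G2 and M phase stood at 0.37 in female WT replicate 1, cortex at 0.84 and 0.57 in female cKO replicates 1 and 2, and injury response at 3.12 in male cKO replicate 3.

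Female WT replicate 1 had raised levels of many mitotic genes, but of the 3 proliferation genes only *Top2a* was highest in it. Of 40 G2 and M phase genes, 17 (42.5%) were highest in it, where 5.90% of all genes were. Of 24 S phase genes, 5 (20.8%) were highest in it as well, though the score of that list was 0.045 in this library. *Cdc20*, which activates the ubiquitin ligase that ends mitosis, had 5.01 TPM there and 0.330 to 0.797 TPM in the other libraries. *Cenpf* had 5.13 TPM, *Cks2* 10.3, *Foxm1* 3.76, *Plk1* 3.09, *Bub1* 1.37 and *Melk* 1.27 TPM, each the highest of the 12. *Top2a* was likewise highest there, whereas *Mki67* at 0.570 TPM and *Cdk1* at 1.16 TPM lay within the range of the other libraries. The median of the G2 and M phase list moved from -0.05 to 0.01 on the log2 scale without that library. The pluripotency genes *Lin28a* and *Pou5f1* were at 8.28 and 4.28 TPM in the same library and at no more than 0.0232 and 0.592 TPM in any other, and the other 6 tested genes of that list were at no more than 1.33 TPM in every library. These genes were picked after their values were seen, and their bearing on the proliferation genes was not tested.

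**Figure D5:**
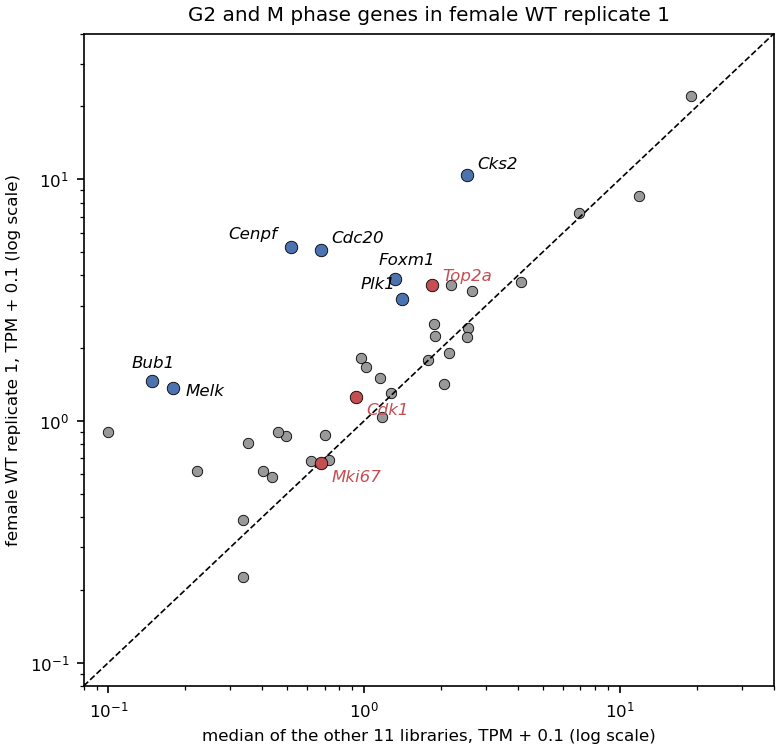
Level of 40 G2 and M phase genes in female WT replicate 1 (vertical) against the median of the other 11 libraries (horizontal), both TPM + 0.1 on log axes; the dashed line marks equality, red points the 3 proliferation genes and blue points other named genes. *Cdc20*, *Cenpf*, *Bub1* and *Melk* lay far above the line, *Top2a* above it, and *Mki67* on it.

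Male cKO replicate 3 was highest for 19.5% of all genes, and it carried raised genes of the response to tissue injury. Of 10 such genes, chosen after the values were seen, 9 were highest in it, among them *Timp1* at 39.2 TPM, *Socs3* at 23.5 TPM and *Lif* at 33.6 TPM, where the other 11 libraries had at most 3.72, 3.90 and 2.16 TPM. *Gfap* reached 1267 TPM in it and 208 to 437 TPM elsewhere. Among the 9 genes, *Sox11*, *Mki67* and *Igfbpl1* were highest and *Neurod1* was lowest in this library. Without female WT replicate 1 and male cKO replicate 3, *Sox11* was 3.97 ± 0.727 TPM in WT and 4.08 ± 0.335 TPM in *Dek* cKO libraries (SD, n = 5), and *Neurod1* was 13.5 ± 1.67 and 12.5 ± 2.08 TPM. The part of the injury genes in the values of *Sox11*, *Mki67*, *Igfbpl1* and *Neurod1* was not tested.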

How the data were processed

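The authors deposited 1 table of TPM per gene for the 12 libraries. The submitters' processing notes name kallisto and mm10, while the study's methods describe STAR on GRCm38 and Salmon, and which of them wrote the table is not stated. TPM keeps no read counts, so depth and counting error are unknown, the study's DESeq2 test could not be repeated, and low genes such as *Eomes* and *Cdk1* are the least certain. Listed genes summed to between 825750 and 845553 TPM per library, and 13850 to 14235 genes reached 1 TPM. Groups follow the sample labels. No 2 libraries held the same values (at most 0.00524% identical).

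Ensembl IDs were named by GENCODE M21 (25245 of 26409 matched), which also gave coordinates. Values were tested as log2(TPM + 0.1) for genes that averaged 0.1 TPM or more, with limma 3.58.1 (R 4.3.3), a trended prior variance, two-sided, on 2 groups of 6 libraries or 1 fit of 4 groups. The threshold was a Benjamini-Hochberg adjusted p under 0.05 together with a 1.2-fold change. That the mice were separate animals is taken from the labels. Fold changes near 0.1 TPM are understated by the added constant. Correlations used 100000 permutations. The share of 31-base words was counted over GENCODE transcripts, with a word and its reverse complement taken as the same. Promoters came from RefSeq.

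The 9 genes and the 21 lists (277 genes) were chosen with earlier results of these data known. Named were the 9 genes, *Dek*, the gene of each list with the largest absolute difference among those averaging 1 TPM or more, and the 3 genes most correlated with *Dcx* and with *Mki67*. Lists for pluripotency and injury response, and all other genes named, were chosen after their values were seen. Alternatives were 0.5 or 1 TPM added, no filter or one at 1 TPM, median ratio or quantile scaling, no variance trend, a sex covariate, a replicate block, male WT as the only controls, both libraries of conflicting sex left out or moved to the sex of their Y-linked genes, and each library left out in turn. The median of the G2 and M phase list without female WT replicate 1 was added after seeing the data. The steps were tested on simulated data. Tables and figures used Python 3.11.15, pandas 2.3.3, numpy 2.4.6, scipy 1.17.1 and matplotlib 3.10.9.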

Additional observations from a re-analysis of the deposited data

Results flagged for a closer look

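Of 86 groups of 6 libraries, each a named gene in 1 genotype, 18 held a library that stood apart from the other 5 by Dixon's criterion, which by chance about 1 in 20 groups do. Many of the genes were named because 1 library was extreme, so the count of 18 cannot be read against chance. Among the 9 genes there were 3. *Sox11* was at 9.24 TPM in male cKO replicate 3, with the next *Dek* cKO library at 4.62 TPM. *Eomes* was at 1.71 TPM in female WT replicate 2, with the next WT library at 0.708 TPM. *Mki67* was at 0.649 TPM in male WT replicate 2, only slightly above the next at 0.576 TPM, since the other WT libraries were very close together.

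Among WT libraries, female WT replicate 1 stood apart in 8 genes: *Cdc20* at 5.01, *Cenpf* at 5.13, *Cks2* at 10.3, *Bub1* at 1.37, *Melk* at 1.27, *Foxm1* at 3.76, *Plk1* at 3.09 and *Fgf2* at 2.18 TPM. Among *Dek* cKO libraries, male cKO replicate 3 stood apart in 5 more genes: *Gfap* at 1267, *Sstr2* at 24.2, *Cdkn1a* at 16.2, *Aurka* at 4.08 and *Cenpf* at 1.13 TPM. *Rarres2*, an ependymal marker, was at 9.64 TPM in female cKO replicate 3, and *Lamp5*, a cortical marker, at 40.6 TPM in male WT replicate 1. What set these libraries apart was not tested.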

How the results depend on the processing

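Under every alternative run, 0 of the 9 genes passed in *Dek* cKO against WT mice, with a lowest adjusted p of 0.688. Of 204 recomputed differences of the 9 genes, 176 kept their direction and 28 turned, 21 of them by leaving out 1 library. A mean of at least 1 TPM gave no value for *Mki67*, *Cdk1* and *Eomes*.

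With median ratio or quantile scaling *Dcx* turned to -0.0086 and -0.014 on the log2 scale. Against the 3 male WT libraries alone *Dcx* was -0.16, *Sox4* 0.019, *Eomes* 0.10, *Top2a* 0.23, *Cdc20* 0.20, *Melk* 0.015, *Foxm1* 0.060 and *Plk1* 0.37. Without both libraries of conflicting sex *Igfbpl1* was -0.28, *Trp73* -0.079 and *Plk1* 0.10. The causes were not tested. Leaving out each library in turn turned *Dcx* (-0.073 to 0.077), *Sox4* (-0.030 to 0.024), *Igfbpl1* (-0.17 to 0.56), *Top2a* (-0.18 to 0.11), *Cdk1* (-0.39 to 0.16), *Cdkn1a* (-0.0051 to 0.40), *Otx2* (-1.02 to 0.35), *Lamp5* (-0.062 to 0.28), *Cdc20* (-0.62 to 0.090), *Bub1* (-0.21 to 0.14), *Foxm1* (-0.44 to 0.0051), *Plk1* (-0.11 to 0.22) and *Aurka* (-0.11 to 0.19).

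Over all genes, the 27 that passed became 17 with no filter, 8 against male WT alone, 16 without the libraries of conflicting sex, 36 without a variance trend, 32 with 0.5 or 1 TPM added and 13 to 27 without each library in turn (15 without female cKO replicate 1, 13 without female cKO replicate 2, 17 without male cKO replicate 1). In female mice 3 became 7 without a variance trend, 11 without the libraries of conflicting sex, 9 with sexes by Y-linked genes and 1 to 7 without each library. In male mice 3 became 6 with no filter or no trend, 7 without the libraries of conflicting sex, 5 with sexes by Y-linked genes and 2 to 7 without each library. In the interaction 0 became 2 with no filter, no trend or without the libraries of conflicting sex, 3 with sexes by Y-linked genes and 0 to 1 without each library. With a replicate block 3 genes passed over both sexes, 1 in female and 1 in male mice. Replicate numbers did not pair the samples: same-numbered libraries deviated together with r from -0.0385 to 0.0445, and 2 of 6 correlated best with their own number.

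Limits are set by n = 3 or 6 and by the low level of these genes: 95% intervals were from 0.298 (*Sox4*) to 2.30 (*Eomes*) wide on the log2 scale.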
